A study of Mus musculus with 39 samples.

Results

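Binding of Notch and of its DNA-binding partner RBPJ was compared within intermediate progenitor cells (IPCs), the neuron-producing daughters of the radial glial cells (RGCs) of the embryonic mouse cortex. The members were the peaks of 2 deposited lists on the nuclear chromosomes, 2157 peaks of IPC Notch and 5497 peaks of IPC RBPJ, out of 25453 nuclear peaks in the 4 peak lists of the study. A peak was called shared where it overlapped a peak of the other list by 1 bp or more, and Notch-only or RBPJ-only where it did not. Merging the shared peaks gave 475 shared sites, beside 1671 Notch-only and 5017 RBPJ-only peaks.

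Both lists came from Targeted DamID (TaDa), in which a protein carries the bacterial methylase Dam to its binding sites, the adenine of nearby GATC sites is methylated, and the methylated fragments are sequenced. IPC Notch was the mouse Notch1 intracellular domain (NICD) fused to Dam, in 4 samples. IPC RBPJ was human RBPJ1 fused to Dam, in 3 samples, and IPC Dam-only was the unfused methylase, in 4 samples. The plasmids of all 3 groups were driven by a fragment of the Tα1 promoter of Tuba1a, were electroporated in utero into wild-type MF1 cortex at E13.5, and were followed by dissection at E14.5. Both proteins were therefore supplied from a plasmid, only electroporated cells contributed, and the cell type rests on the promoter, since lists of peaks hold no RNA with which to check it. The authors called peaks against the same Dam-only samples for both proteins and deposited 1 pooled list per protein, with positions but no heights. Shares are accordingly given with Wilson 95% intervals and medians with exact binomial 95% intervals. These cover counting error over peaks, not the spread between samples, and no test over samples was possible.

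Notch receptors are cut when a ligand on a neighbouring cell binds them, and the freed NICD enters the nucleus. NICD does not recognise DNA itself. It joins RBPJ, which reads the word TTCCCA, written TGGGAA where it lies on the minus strand. With RBPJ it recruits Mastermind coactivators, whereas RBPJ without NICD can sit on DNA with corepressors. In the cortex the pathway keeps radial glia undifferentiated, largely through the Hes and Hey repressors, and its output falls as cells become IPCs.

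The following 6 windows of GRCm38 are selected examples of DNA under the groups and do not stand for the rest. Each is the stretch of 300 bases with the most TTCCCA words in its site, on either strand and clear of untranslated regions. All come from sites whose nearest start site belongs to a gene described further on. Each is shown on the plus strand with those words in capitals, so that the DNA that RBPJ could read is seen beside the calls. Of all genome windows of 300 bases, 24.1% held at least 1 such word. The printed windows were selected for the word, so that value cannot show enrichment in them. The first 3 lie in shared sites, the next in a Notch-only peak and the last 2 in RBPJ-only peaks.

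Nrarp, shared, chr2:25177677-25177976: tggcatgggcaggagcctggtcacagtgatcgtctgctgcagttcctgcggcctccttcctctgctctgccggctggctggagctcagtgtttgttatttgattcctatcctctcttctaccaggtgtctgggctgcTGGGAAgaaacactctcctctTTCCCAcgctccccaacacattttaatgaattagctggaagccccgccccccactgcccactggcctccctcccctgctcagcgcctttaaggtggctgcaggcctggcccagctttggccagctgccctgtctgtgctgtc

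Hes1, shared, chr16:30065771-30066070: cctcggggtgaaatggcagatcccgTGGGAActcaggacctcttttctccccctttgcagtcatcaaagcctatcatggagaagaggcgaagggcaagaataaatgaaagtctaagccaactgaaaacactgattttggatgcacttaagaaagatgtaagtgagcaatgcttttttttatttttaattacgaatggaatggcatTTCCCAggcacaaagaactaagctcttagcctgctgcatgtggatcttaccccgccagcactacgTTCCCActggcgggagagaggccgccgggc

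Nes, shared, chr3:87974371-87974670: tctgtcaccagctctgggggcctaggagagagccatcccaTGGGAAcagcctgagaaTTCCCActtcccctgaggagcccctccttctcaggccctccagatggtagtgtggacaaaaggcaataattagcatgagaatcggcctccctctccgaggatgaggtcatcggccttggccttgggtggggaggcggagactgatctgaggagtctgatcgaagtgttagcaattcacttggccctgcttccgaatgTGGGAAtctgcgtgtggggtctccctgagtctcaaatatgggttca

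Pax6, Notch-only, chr2:105690350-105690649: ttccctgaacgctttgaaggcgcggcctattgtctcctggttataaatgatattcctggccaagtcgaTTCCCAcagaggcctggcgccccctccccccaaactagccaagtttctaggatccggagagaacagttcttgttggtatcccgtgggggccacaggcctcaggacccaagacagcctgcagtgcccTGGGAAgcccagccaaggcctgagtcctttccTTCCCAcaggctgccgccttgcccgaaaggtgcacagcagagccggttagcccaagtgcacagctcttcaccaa

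Pax6, RBPJ-only, chr2:105677789-105678088: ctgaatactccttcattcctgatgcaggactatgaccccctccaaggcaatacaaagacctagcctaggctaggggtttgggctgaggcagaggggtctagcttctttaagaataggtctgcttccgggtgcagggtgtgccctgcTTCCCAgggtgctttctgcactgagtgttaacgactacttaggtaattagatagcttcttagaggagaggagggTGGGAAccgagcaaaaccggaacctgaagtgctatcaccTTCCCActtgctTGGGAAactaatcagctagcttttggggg

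Irs2, RBPJ-only, chr8:10646754-10647053: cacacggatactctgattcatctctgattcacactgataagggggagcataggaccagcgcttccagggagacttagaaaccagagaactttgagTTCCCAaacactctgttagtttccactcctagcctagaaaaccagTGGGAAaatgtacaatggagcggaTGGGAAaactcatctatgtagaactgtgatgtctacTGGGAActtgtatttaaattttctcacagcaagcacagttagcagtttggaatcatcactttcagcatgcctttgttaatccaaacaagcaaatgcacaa

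All 3 shared windows lie inside both the Notch and the RBPJ peak of their site. The Nrarp window lies outside genes and holds 2 words pointing head to head, TGGGAA and then TTCCCA, the arrangement in which a pair of RBPJ and NICD complexes can bind together. Such pairs occurred in 0.0161% of genome windows of 300 bases, but the Nrarp window was selected for its words. The Hes1 window crosses an exon and the Nes window lies in an intron. The Pax6 windows lie in introns of the same gene, and each is covered by only 1 of the 2 IPC lists. The Irs2 window comes from a peak of 1483 bp that lies 360.6 kb from the start site of Irs2. That peak holds 4 TTCCCA words and no GATC, the only sequence that Dam can methylate.

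Most peaks of either list had no counterpart in the other. Of the 2157 Notch peaks, 486 overlapped an RBPJ peak, a share of 22.5% (20.8 to 24.3). Of the 5497 RBPJ peaks, 480 overlapped a Notch peak, a share of 8.73% (8.01 to 9.51). The 2 shares differ because similar numbers of shared peaks, 486 and 480, belong to lists of unlike size. Of single positions taken every 10 kb along the genome, 0.369% lay in or within 100 bp of an RBPJ peak. For Notch peaks it was 0.138%. Both shares were thus far above these values, although a peak has width and a position has none. Of the 475 shared sites, 460 joined 1 Notch peak to 1 RBPJ peak, and the most crowded sites held 4 peaks. Counted as sites, 6.63% were shared, 23.3% were Notch-only and 70.0% were RBPJ-only. The authors kept a peak only where it was called in every pair of fusion and Dam-only sample. Notch had 4 fusion samples and RBPJ 3, so a Notch peak had more pairs to pass. What this adds to the unlike sizes of the lists was not tested.

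Where the lists met, they met over most of the peak. The 491 overlapping pairs shared a median of 1096 bp (quartiles 661.5 and 1604.5 bp), which was a median of 83.9% of the Notch peak and 89.1% of the RBPJ peak. In 138 pairs the Notch peak lay inside the RBPJ peak, in 141 the reverse held, 208 pairs overlapped in part and 4 were identical. Overlaps under 100 bp occurred in 2 pairs, so few shared calls rest on a touching edge.

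Shared peaks were wider than the others, although a wide peak also meets another more easily and the rule fixes part of this difference. The median width was 1464 bp (1375 to 1571) for the shared Notch peaks and 1249 bp (1206 to 1284) for Notch-only peaks. It was 1508 bp (1418 to 1613) for the shared RBPJ peaks and 1391 bp (1368 to 1413) for RBPJ-only peaks. Of the 200 Notch peaks under 500 bp, 29 were shared. The share was 20.1% from 500 bp, 20.9% from 1000 bp and 30.7% (26.7 to 35.1) from 2000 bp, and 10 of the 12 Notch peaks of 5000 bp or more were shared. In the RBPJ list the shares were 11.8% (8.19 to 16.8), 7.48% (6.14 to 9.07), 7.75% (6.82 to 8.79), 11.6% (9.91 to 13.6) and 23.5% (9.56 to 47.3) in the same order of widths, with no steady rise.

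**Figure D1:**
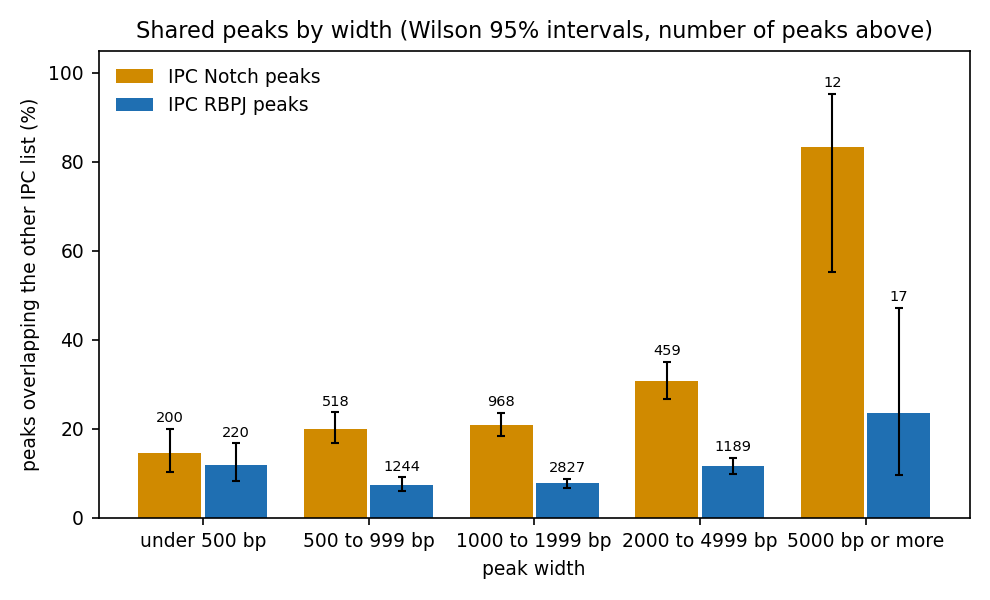
Share of IPC Notch and IPC RBPJ peaks (vertical axis, %) that overlap the other list, by peak width (horizontal axis, bp). Bars give the share, lines the Wilson 95% interval and the numbers over them the count of peaks. The Notch list runs from 29 of 200 peaks under 500 bp to 10 of 12 peaks of 5000 bp or more, and each Notch bar stands above the RBPJ bar of its width class.

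The widest shared site, of 6873 bp, covered a start site of Map1b, a microtubule-associated protein of growing axons, and its Notch peak was the wider of the pair, 6873 bp against 2290 bp. Next came a site of 6821 bp, 9.05 kb from Sfrp1, a secreted Wnt antagonist, then one of 6673 bp at Nrarp, a Notch target that feeds back on the pathway. The sites of Prdm16, a zinc finger regulator of radial glia, and of Sox21, a SoxB factor, measured 6547 and 6439 bp and lay 23.4 and 1.83 kb from the start sites. At Prdm16 the Notch peak spanned the whole site and the RBPJ peak 1315 bp, whereas at Sox21 the RBPJ peak spanned the site and the Notch peak 2979 bp.

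Unshared peaks of the 2 lists were often in the same neighbourhood. The median distance from a Notch-only peak to the nearest RBPJ peak was 84.8 kb (75.5 to 93.6), beside 220.9 kb for positions taken every 10 kb along the genome. From an RBPJ-only peak to the nearest Notch peak it was 308.3 kb (291.1 to 324.4), beside 637.3 kb for the same positions. Within 10 kb of the other list lay 13.9% (12.4 to 15.7) of Notch-only peaks and 4.86% (4.30 to 5.49) of RBPJ-only peaks, against 4.35% and 1.69% of genome positions. Both lists were called against the same Dam-only samples, and the part that this has in their nearness was not tested. Within 100 bp of an RBPJ peak lay 17 Notch-only peaks, 1.02% (0.64 to 1.62), and within 1 kb 60, 3.59% (2.80 to 4.59). The shares of genome positions were 0.369% and 0.738%, which include positions inside RBPJ peaks.

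**Figure D2:**
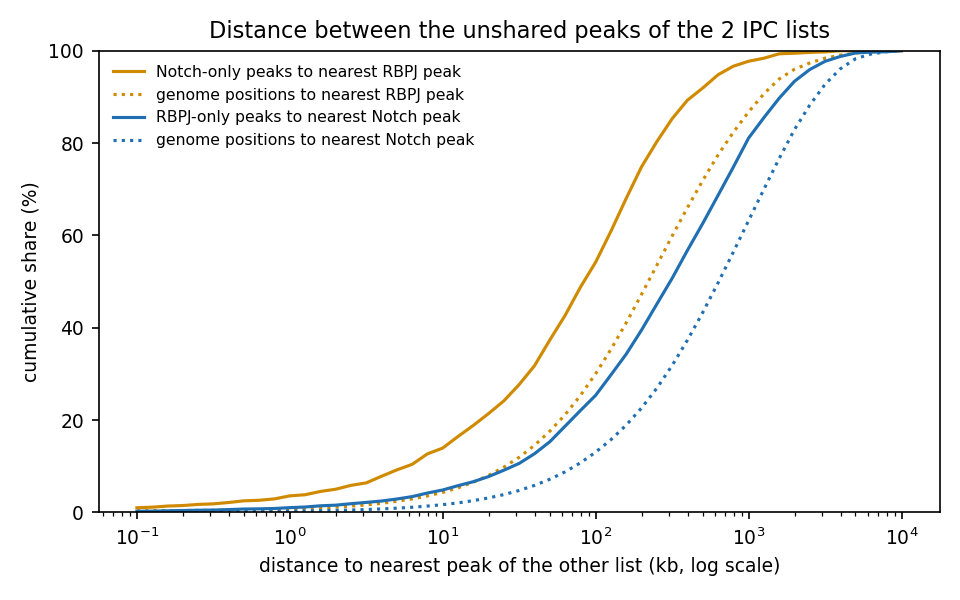
Cumulative share (vertical axis, %) of Notch-only peaks within a given distance of the nearest RBPJ peak, and of RBPJ-only peaks within that distance of the nearest Notch peak (horizontal axis, kb, log scale). Dotted lines give positions taken every 10 kb along the genome, and at its midpoint each solid line lies to the left of its dotted line, with medians of 84.8 against 220.9 kb and 308.3 against 637.3 kb.

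One property of the RBPJ-only peaks bears on every count of them. No GATC site was found in 1832 of the 5017, a share of 36.5% (35.2 to 37.9), against 6.04% (4.999 to 7.29) of Notch-only peaks, 4.12% (2.68 to 6.27) of shared Notch peaks and 3.33% (2.06 to 5.35) of shared RBPJ peaks. Genome windows of 1398 bp, the median width of the IPC RBPJ list, lacked GATC in 3.92% of cases. The 101 Notch-only peaks without GATC were short, with a median of 369 bp, filled a median of 96.7% of the fragment between neighbouring GATC sites, and had 91.6% of their ends within 50 bp of such a site. The RBPJ-only peaks without GATC had a median width of 1378 bp, lay in GATC fragments with a median length of 2127 bp, filled a median of 69.2% of the fragment, and had 19.2% of their ends within 50 bp of a GATC site. RBPJ-only peaks that held GATC had 60.5% of their ends there, and shared RBPJ peaks 62.7%.

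The peaks without GATC were rarely found in RGCs, in libraries that the grouping did not use. Of the 1832, 3.11% (2.41 to 4.01) overlapped a peak of either RGC list, against 36.1% (34.5 to 37.8) of the 3185 RBPJ-only peaks with GATC. In the authors' 8 k-means clusters, built on intensities of the same samples and therefore a description, 94.2% of peaks without GATC belonged to cluster 3, against 47.7% of those with GATC. How these peaks arose was not tested. With peaks that hold GATC in both lists, 12.5% of RBPJ peaks and 22.6% of Notch peaks were shared, and some results on RBPJ-only peaks are given both ways.

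The RGC lists, called from other libraries against 5 RGC Dam-only samples, give a readout that took no part in forming the groups. Their plasmids were driven by a fragment of the Hes5 promoter, with electroporation at E13.5 and dissection at E14.5 as for IPCs. The RGC identity thus also rests on a promoter. Shared sites were the ones most often found in the RGC lists. An RGC RBPJ peak overlapped 72.0% (67.9 to 75.8) of the shared Notch peaks and 49.5% (47.1 to 51.9) of the Notch-only peaks, a difference of 22.5 percentage points (17.7 to 27.0). It overlapped 72.1% (67.9 to 75.9) of the shared RBPJ peaks and 22.2% (21.1 to 23.4) of the RBPJ-only peaks, a difference of 49.9 points (45.5 to 53.8). Notch-only peaks in IPCs thus coincided with RBPJ in RGCs more often than RBPJ-only peaks did, by 27.3 points (24.6 to 29.9). With peaks that hold GATC the share was 33.4% for RBPJ-only and 50.1% for Notch-only peaks. With peaks of at least 1000 bp in both IPC lists it was 76.2% for shared Notch and 54.3% for Notch-only peaks.

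RGC Notch peaks, from 4 samples with NICD or a longer form that keeps the transmembrane domain, showed the same order at lower levels. They overlapped 30.9% (26.9 to 35.1) of shared Notch peaks, 21.5% (19.6 to 23.5) of Notch-only, 30.4% (26.5 to 34.7) of shared RBPJ and 5.86% (5.24 to 6.54) of RBPJ-only peaks, the last being 9.02% among those with GATC. Read the other way, 34.4% (29.8 to 39.2) of the 387 IPC Notch peaks found in both RGC lists were shared, against 13.9% (11.7 to 16.3) of the 858 found in neither. For IPC RBPJ peaks the values were 39.2% (34.1 to 44.5) of 332 and 3.00% (2.51 to 3.59) of 3928.

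**Figure D3:**
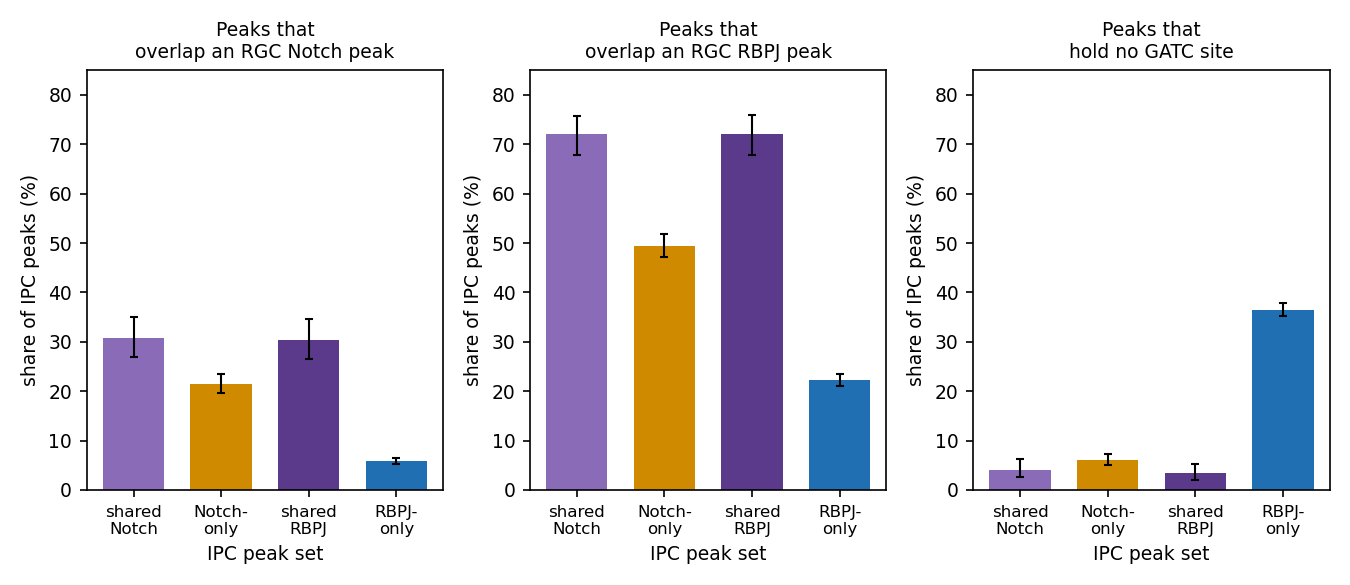
Share of IPC peaks (vertical axes, %) in 4 sets (horizontal axes: shared Notch, Notch-only, shared RBPJ and RBPJ-only peaks) that overlap an RGC Notch peak, overlap an RGC RBPJ peak or hold no GATC site. Bars give the share and lines the Wilson 95% interval. RBPJ-only peaks are lowest in both RGC panels, at 5.86% and 22.2%, and highest for the lack of GATC, at 36.5%.

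RBPJ-only peaks lay nearest to genes, and all sets were nearer than positions along the genome. Shared peaks had the highest medians, but their intervals overlapped that of Notch-only peaks. The median distance to the nearest protein-coding start site was 30.3 kb (23.4 to 39.5) for shared Notch peaks, 24.2 kb (20.9 to 28.5) for Notch-only, 30.6 kb (24.9 to 39.4) for shared RBPJ and 18.7 kb (17.1 to 20.5) for RBPJ-only peaks, beside 46.3 kb for the genome positions. The median of RBPJ-only peaks was 16.7 kb with peaks that hold GATC. A start site lay inside 11.1% (8.62 to 14.2) of shared Notch and 11.4% (9.94 to 12.98) of Notch-only peaks, a difference of -0.26 points (-3.23 to 3.16). It lay inside 12.1% (9.46 to 15.3) of shared RBPJ and 14.4% (13.49 to 15.4) of RBPJ-only peaks, a difference of -2.35 points (-5.15 to 1.01). Both intervals include 0. The difference of Notch-only and RBPJ-only peaks was -3.06 points (-4.81 to -1.19), with RBPJ-only peaks the higher. With peaks that hold GATC, 17.97% of RBPJ-only peaks covered one.

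By the midpoint of the peak, shared peaks lay between genes more often than unshared ones. Intergenic midpoints made up 44.4% (40.1 to 48.9) of shared Notch and 39.4% (37.1 to 41.7) of Notch-only peaks, and 43.5% (39.2 to 48.0) of shared RBPJ and 35.7% (34.4 to 37.0) of RBPJ-only peaks, beside 56.6% of genome positions. The differences were 5.07 points (0.11 to 10.1) and 7.84 points (3.28 to 12.5). Introns held 46.1%, 46.5%, 45.8% and 49.3% of the 4 sets in that order, beside 36.6% of genome positions. Exons held 3.91% (2.52 to 6.02) of shared Notch and 7.54% (6.37 to 8.91) of Notch-only peaks, and 5.42% (3.72 to 7.82) and 9.15% (8.38 to 9.98) of the RBPJ sets, beside 3.73% of genome positions. The 5 kb upstream of start sites held 13.2%, 16.6%, 12.1% and 17.46%, beside 8.24% of genome positions.

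TTCCCA was denser in every group than in the genome, where it occurred 0.934 times per kb. The genome value was not matched to the peaks for GC content or repeats, which differed and are given further on. Shared Notch peaks held 1.27 words per kb (1.19 to 1.35) and shared RBPJ peaks 1.29 (1.21 to 1.37), where the intervals are Poisson 95% intervals over words. RBPJ-only peaks held 1.24 (1.22 to 1.27) and Notch-only peaks 1.12 (1.08 to 1.17). Notch-only peaks thus had the lowest density of the word among the 4 sets, with an interval that met no other. Within the central 500 bp the densities were 1.45 for shared Notch, 1.49 for shared RBPJ, 1.23 (1.19 to 1.27) for RBPJ-only and 1.18 (1.11 to 1.26) for Notch-only peaks, so that the last 2 intervals overlapped there. RBPJ-only peaks held 1.10 words per kb where GATC was lacking and 1.32 where it was present.

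Counted by peak, 83.7% (80.2 to 86.8) of shared Notch, 71.6% (69.4 to 73.7) of Notch-only, 83.3% (79.7 to 86.4) of shared RBPJ and 78.5% (77.3 to 79.6) of RBPJ-only peaks held at least 1 TTCCCA, shares that rise with width. Genome windows of 1284 bp, the median width of the IPC Notch list, held it in 69.3% of cases and windows of 1398 bp in 72.3%. The head-to-head pair TGGGAA and TTCCCA with 15 to 17 bases between them was rare. In the shared set it occurred at 1 site, that of Nrarp, in both the Notch and the RBPJ peak. It occurred in 1 Notch-only peak, near Spata19, and in 5 RBPJ-only peaks, near Ipo11, Efna5, Tgif1, Gm17304 and Nectin1. These genes were looked up after the count was seen. The density was 0.434 pairs per Mb in Notch-only and 0.661 in RBPJ-only peaks, near the 0.587 of the nuclear genome. The 1.20 and 1.23 per Mb of shared Notch and shared RBPJ peaks rest on 1 pair.

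The homeodomain word TAATTA was less dense in RBPJ-only peaks than in the other sets. It occurred 0.484 times per kb (0.437 to 0.531) in shared Notch, 0.493 (0.464 to 0.522) in Notch-only, 0.477 (0.430 to 0.525) in shared RBPJ and 0.354 (0.340 to 0.367) in RBPJ-only peaks, beside 0.409 in the genome. RBPJ-only peaks held 0.379 in the comparison of peaks with GATC. The E-box CANNTG, the word of proneural factors, differed less, with 5.28, 5.37, 5.23 and 5.61 per kb in the same order and 5.54 in the genome. GC content was 45.8%, 46.4%, 46.1% and 47.6%, above the 41.7% of the genome, and repeat-masked bases made up 14.48%, 14.1%, 13.99% and 15.8%, against 36.4%.

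The authors' clusters, built on binding intensities of the same samples, describe the groups without testing them. Notch-only peaks fell mainly in cluster 6, with 59.5% (57.2 to 61.9), then in cluster 2 (18.8%) and cluster 7 (7.96%). The paper describes clusters 2, 6 and 7 as bound by both NOTCH and RBPJ in RGCs and IPCs. It gives cluster 3 as bound by RBPJ alone in IPCs. Notch-only and RBPJ-only thus describe peak calls in the 2 lists, and do not show that the other protein was absent. RBPJ-only peaks fell mainly in cluster 3, with 64.7% (63.3 to 66.0), and in cluster 7, with 21.7% (20.6 to 22.9). Shared Notch peaks were spread over cluster 2 (35.0%), cluster 7 (31.3%) and cluster 6 (22.6%). Along the genome, the autosomes carried between 0.0769 (chromosome 15) and 0.293 (chromosome 19) shared sites per Mb and the X chromosome 0.0292. The X chromosome was sparse in all 3 groups, with 5 shared sites, 35 Notch-only and 83 RBPJ-only peaks.

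The start site closest to each site then named its protein-coding gene, which is a neighbour and not of need a target. Of 21938 such genes, 404 were nearest to a shared site, a share of 1.84%. Notch-only peaks named 1279 genes, a share of 5.83%, RBPJ-only peaks 3384, a share of 15.4%, and any group 4161, a share of 19%. These shares are the background against which the gene lists stand. They give each gene equal weight, whatever the stretch of genome nearest to its start sites. A gene far from its neighbours has more sequence in which to collect sites, and what this adds to a list was not tested. Most genes had a single site of a group, 86.1% for shared sites, 80.2% for Notch-only and 72.2% for RBPJ-only peaks. Genes were shared more widely than peaks: 900 of the 1519 genes of the Notch list were also in the RBPJ list, and 496 of those 900 had no shared site. A total of 120 genes had all 3 kinds. With RBPJ-only peaks that hold GATC, that group named 2269 genes, a share of 10.3% of all genes.

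Among the receptors, Notch1 stood out by its number of Notch-only peaks, 8, with 3 RBPJ-only peaks and no shared site. Of these 8, 4 lay side by side over the 3' end of the gene, at chr2:26458793-26461395, chr2:26461917-26462710, chr2:26463155-26464238 and chr2:26464574-26465756. Between them they touched each of exons 28 to 34 of a transcript with 34 exons, the part that encodes the intracellular domain, which is also the sequence carried by the IPC Notch plasmid. No peak of the RGC Notch or RGC RBPJ list overlapped any of the 4, and whether their reads came from the plasmid or the chromosome cannot be told apart from positions. The other 4 Notch-only peaks of Notch1 each overlapped an RGC peak, and one of them, at chr2:26533033-26533753, ended beside an RBPJ-only peak that began at 26533756. Both RBPJ-only peaks inside the gene, of 2785 and 1091 bp, held no GATC.

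Notch2 had 2 Notch-only and 3 RBPJ-only peaks, Notch3 had 2 RBPJ-only peaks, of which 1 held no GATC, and Notch4 had 1 RBPJ-only peak, without GATC. Of the ligands, Jag1 had 3 RBPJ-only peaks, one of them across a start site and another without GATC, and Dll3, an inhibitory member, had 1 across its start site. Lfng and Mfng, which glycosylate the receptor, had 1 RBPJ-only peak each, across a start site at Lfng and without GATC at Mfng. Rbpj itself had 3 RBPJ-only peaks, of 1692, 2268 and 1153 bp, each of which overlapped an RGC RBPJ peak. Of the coactivators, Maml3 had 1 Notch-only and 4 RBPJ-only peaks and Maml2 had 2 RBPJ-only peaks, with 1 peak lacking GATC at each. In the list of 38 pathway genes, 2 had a shared site, 5 a Notch-only and 16 an RBPJ-only peak, or 12 with peaks that hold GATC. The 2 with shared sites were Nrarp and Nepro. Numb, which antagonises the receptor, had 1 Notch-only peak, and Fbxw7, Ncstn and Spen had RBPJ-only peaks alone.

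Of 19 genes for Hes, Hey and related bHLH repressors, Id proteins and Tle corepressors, 7 had a shared site (Hes1, Hes5, Hey1, Bhlhe40, Tle1, Tle3 and Tle4), 36.8% (19.1 to 59.0) against 1.84% of all genes, 6 a Notch-only and 12 an RBPJ-only peak. Hes1, the main effector in radial glia, had 2 shared sites and 2 Notch-only peaks. One shared site, of 3108 bp, covered the gene's start site and overlapped peaks of both RGC lists. The other, at chr16:29880506-29885223, lay 179.2 kb from the start site and was a Notch peak of 4718 bp around an RBPJ peak of 2274 bp, with 10 TTCCCA words in the Notch peak. Of the Notch-only peaks, one lay 1.24 kb from the gene's nearest start site.

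Hes5 had 1 shared site of 962 bp, 14.2 kb from its start site, and 2 RBPJ-only peaks 7.81 and 3.21 kb away, so that Notch was called only at the farthest of the 3. Hey1 had an RBPJ-only peak of 2182 bp over its start site, with 6 TTCCCA words, while its shared site lay 50.3 kb away. Nrarp had the site of 6673 bp already described, in which the Notch peak of 5948 bp reached the start site and the RBPJ peak of 2146 bp did not, and 1 RBPJ-only peak 9.44 kb away with 8 TTCCCA words. Nepro, a target that maintains cortical progenitors, had 2 shared sites, 55.9 and 38.3 kb away. The Groucho corepressors Tle1, Tle3 and Tle4, which act with Hes proteins, had sites of all 3 groups, with 6, 10 and 8 sites. Of the Id proteins, which block bHLH factors, Id4 had 3 Notch-only peaks, one of 5339 bp, and 2 RBPJ-only peaks.

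**Figure D4:**
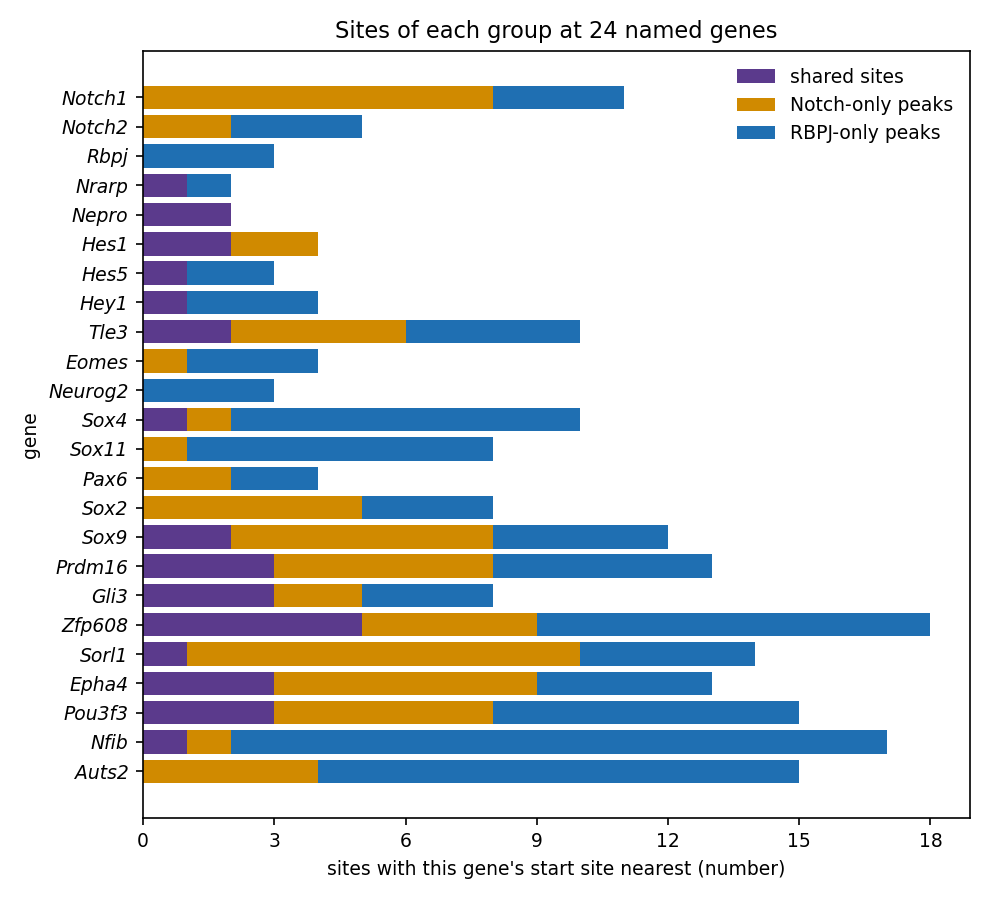
Number of sites (horizontal axis) nearest to the start site of each of 24 named genes (vertical axis), stacked as shared sites, Notch-only peaks and RBPJ-only peaks. Notch1 shows 8 Notch-only peaks and no shared site, Nepro only shared sites, Rbpj and Neurog2 only RBPJ-only peaks, and Zfp608 the longest bar, with 18 sites.

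Of 20 radial glia markers, 8 had a shared site (40.0%, 21.9 to 61.3), 9 a Notch-only (45.0%, 25.8 to 65.8) and 9 an RBPJ-only peak. Of 13 IPC markers, 1 had a shared site (7.69%, 1.37 to 33.3), 4 a Notch-only (30.8%, 12.7 to 57.6) and 9 an RBPJ-only peak (69.2%, 42.4 to 87.3), or 8 with peaks that hold GATC. The intervals of the 2 lists overlap in each of the 3 groups. Eomes, which defines IPCs, had 1 Notch-only peak of 288 bp, 159.1 kb away, and 3 RBPJ-only peaks, the nearest of 3572 bp at 6.73 kb and none of them in an RGC list. Neurog2, a proneural activator of Eomes, had 3 RBPJ-only peaks and Neurog1 had 2, one of which, of 3346 bp, covered its start site. Sox4 and Sox11, SoxC factors of newborn neurons, had 8 and 7 RBPJ-only peaks. At Sox4 a shared site of 5244 bp lay 1.88 kb from the start site.

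At the radial glia genes, Sox2 had 5 Notch-only and 3 RBPJ-only peaks but no shared site. One Notch-only peak, at chr3:34638547-34639752, ended just before an RBPJ-only peak of 4825 bp that began at 34639765. Pax6, a regulator of cortical progenitors, had 2 RBPJ-only peaks of 3994 and 4624 bp that each covered a start site. Its 2 Notch-only peaks, of 1152 and 3453 bp, lay 1.27 and 27.1 kb from the nearest start site. The first RBPJ-only peak overlapped peaks of both RGC lists. Sox9 had 2 shared sites, 6 Notch-only and 4 RBPJ-only peaks, spread up to 659.9 kb from its start site. Emx2 had 2 shared sites of 5387 and 1701 bp beside its start site, and Fabp7, a fatty acid binding protein of radial glia, had 1 of 3297 bp that covered it. Nes, an intermediate filament, had 1 shared site in an intron. Prdm16 had 3 shared sites, 5 Notch-only and 5 RBPJ-only peaks, of which 2 RBPJ-only peaks held no GATC.

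Of the other signalling pathways, hedgehog had the largest share of genes with a Notch-only peak, with an interval that overlapped those of the others. Of its 15 genes, 2 had a shared site, 7 a Notch-only (46.7%, 24.8 to 69.9) and 9 an RBPJ-only peak. Gli3, which forms the main repressor of the pathway, had 3 shared sites, one 0.769 kb from a start site and without TTCCCA in either peak, with 2 Notch-only and 3 RBPJ-only peaks. Gli2 had 3 Notch-only and 4 RBPJ-only peaks, of which 2 of the latter held no GATC, and the receptor Ptch1 had 3 and 5. Of 43 Wnt genes, 5 had a shared site, 7 a Notch-only and 21 an RBPJ-only peak, or 14 with peaks that hold GATC. Ctnnb1, beta-catenin, had 1 shared site 58.7 kb away, and Tcf7l2 had 1 shared site of 2781 bp over a start site. None of 25 Bmp and Tgf-beta genes had a shared site, with an interval of up to 13.3% that includes the 1.84% of all genes. In that list 5 had a Notch-only and 12 an RBPJ-only peak, or 10 with peaks that hold GATC. Of 21 Fgf genes, 1 had a shared site (Fgf15, looked up after the count was seen), 3 a Notch-only and 8 an RBPJ-only peak, or 5 with peaks that hold GATC. Of 19 Hippo genes, 1 (Vgll4) had a shared site, 6 a Notch-only and 8 an RBPJ-only peak, and the last count was the same with peaks that hold GATC.

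Transcription factors that pattern the cortex had peaks almost throughout. Of 22 homeobox and patterning genes, 8 had a shared site, 13 a Notch-only and 20 an RBPJ-only peak, or 17 with peaks that hold GATC, and 21 had at least 1 of the 3. Pou3f3, a class III POU factor, had 3 shared sites, 5 Notch-only and 7 RBPJ-only peaks, and Meis2, a TALE homeobox factor, had 1, 7 and 3. Lhx2 had 1 Notch-only and 2 RBPJ-only peaks, one of them 0.19 kb from its start site and without GATC. Of 14 Sox genes, 5 had a shared site, 8 a Notch-only and 7 an RBPJ-only peak. All 4 genes of the Nfi factors, which act late in progenitors, had an RBPJ-only peak, 3 of them one that holds GATC, and Nfib had 15 of them, more than any other gene, with 2 lacking GATC.

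Of 19 neuron markers, 7 had a shared site (36.8%, 19.1 to 59.0), 10 a Notch-only (52.6%, 31.7 to 72.7) and 13 an RBPJ-only peak (68.4%, 46.0 to 84.6), each above the share of all genes. The 7 were Bcl11a, Mef2c and 5 that the Nfi, homeobox or proneural lists also count, Nfib, Nfia, Pou3f3, Cux2 and Neurod6. Among the others, Tubb3, Map2, Dcx and Rbfox3 had no shared site. Tbr1, Dcx, Bcl11b and Neurod2 had no peak of any group. These members were looked up after the counts were seen. Sox5, a factor of deep-layer neurons, had 7 RBPJ-only peaks, 1 of them without GATC, 3 Notch-only peaks and no shared site. Of 10 interneuron markers, 5 had an RBPJ-only peak and 0 a shared site, with an interval of up to 27.8% that includes the 1.84% of all genes. Of 13 proneural and related bHLH genes, 9 had an RBPJ-only peak, 3 a Notch-only and 2 a shared site, those of Tcf4 and Neurod6. Of 24 potassium channel genes, 17 had an RBPJ-only peak (70.8%, 50.8 to 85.1), 3 a Notch-only and 2 a shared site. Of 31 synaptic adhesion genes, 23 had an RBPJ-only (74.2%, 56.8 to 86.3), 10 a Notch-only and 3 a shared site. With peaks that hold GATC the RBPJ-only counts were 15 and 19. Of 41 axon guidance genes, 29 had an RBPJ-only peak (70.7%, 55.5 to 82.4), or 25 with peaks that hold GATC, 21 a Notch-only peak (51.2%, 36.5 to 65.7) and 10 a shared site (24.4%, 13.8 to 39.3). Epha4 had 3 shared sites, 6 Notch-only and 4 RBPJ-only peaks, whereas Robo2 had 1 Notch-only and 8 RBPJ-only peaks and Efnb2 had 1 shared site and 6 RBPJ-only peaks. Of 30 synaptic receptor genes, 15 had an RBPJ-only peak, or 11 with peaks that hold GATC, 3 a Notch-only and 2 a shared site. Of 22 cadherin genes, 14 had an RBPJ-only peak, or 12 with peaks that hold GATC, 5 a Notch-only and 3 a shared site. Of 22 matrix and integrin genes the counts were 8, or 6, then 3 and 2.

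Of 10 markers of microglia and endothelium, 1 had an RBPJ-only peak and no other group, and that peak, near Kdr, held no GATC. Of 15 housekeeping genes, 1 had a Notch-only and 2 an RBPJ-only peak, and both RBPJ-only peaks held no GATC. The housekeeping shares, 6.67% and 13.3%, were near those of all genes. Of 1466 olfactory and vomeronasal receptor genes, 13 had an RBPJ-only peak (0.887%, 0.519 to 1.51), 10 of these peaks without GATC, 1 had a Notch-only peak and 0 had a shared site, so that this list lay below the background of each group. Chromatin genes, with 7 of 28 for RBPJ-only peaks, and cell cycle genes, with 7 of 26, stood nearer to the 15.4% of all genes than the developmental lists did.

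**Figure D5:**
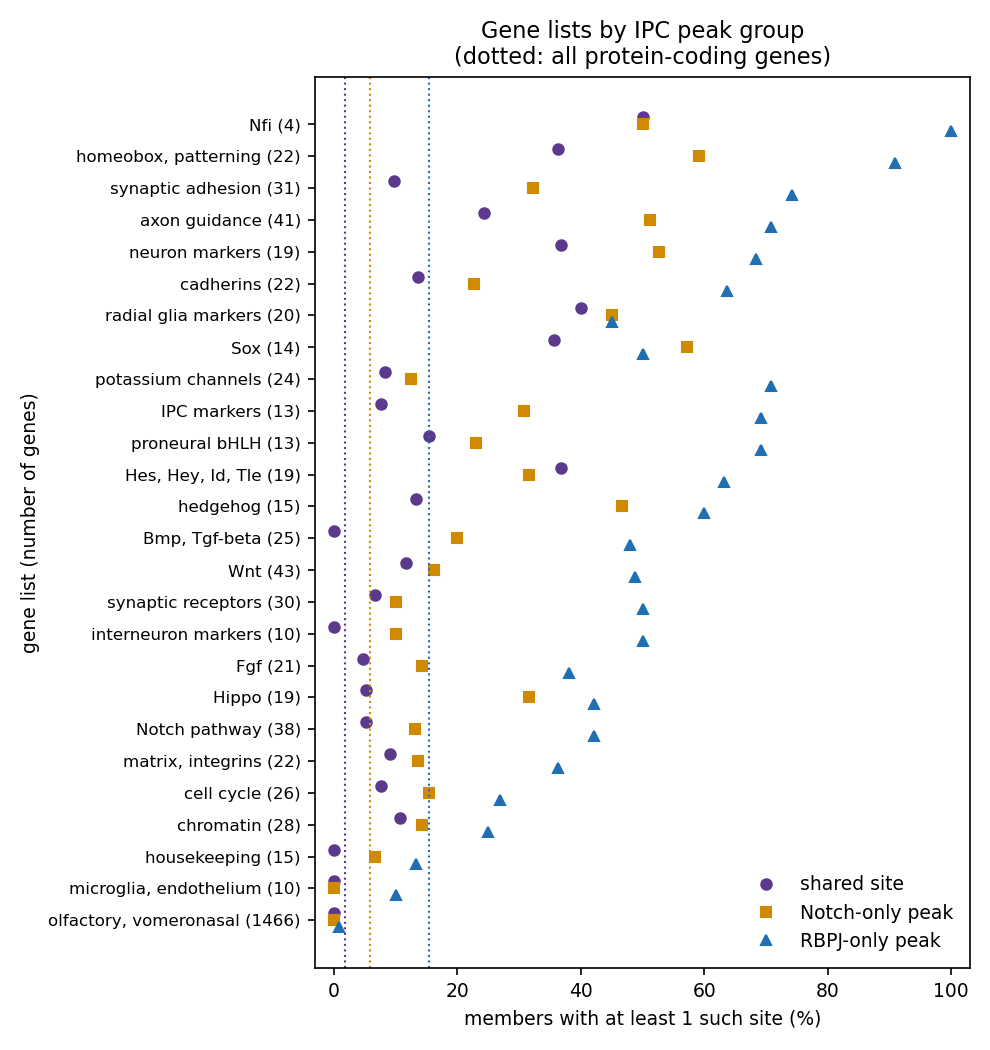
Share of the members of 26 gene lists (vertical axis, with the number of genes) that have at least 1 shared site, Notch-only peak or RBPJ-only peak (horizontal axis, %), ordered by the share with any of them. Dotted lines give the same shares over all protein-coding genes, 1.84%, 5.83% and 15.4%. The homeobox list reaches 90.9% for RBPJ-only peaks, while the olfactory and vomeronasal list stays below every dotted line.

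The genes with the most sites differed between the groups. Zfp608, a zinc finger gene of the developing cortex, led the shared sites with 5 and also had 4 Notch-only and 9 RBPJ-only peaks. Irs2, which relays insulin and growth factor signals, followed with 4 shared sites, 1 Notch-only and 1 RBPJ-only peak, all 4 shared sites being found in the RGC RBPJ list. Mpped2 had 3 shared and 3 Notch-only sites but no RBPJ-only peak. Sorl1, a sorting receptor, led the Notch-only peaks with 9, beside 1 shared site and 4 RBPJ-only peaks. Celf2, an RNA-binding protein, had 7 Notch-only peaks, of which 3, at chr2:7307792-7309576, chr2:7309589-7310446 and chr2:7310459-7313629, ran on almost without a gap, so that counts of peaks per gene depend in part on where a broad peak was broken. In the whole Notch list 52 peaks ended within 100 bp of another Notch peak, and in the RBPJ list 46 did so. After Nfib, the RBPJ-only peaks were led by Auts2 and Adgrl2 with 11 each, of which 5 and 2 held no GATC, and by Myt1l, a neuronal zinc finger factor, with 9.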

How the data were processed

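The series holds 39 samples, of which the 4 IPC Notch, 3 IPC RBPJ and 4 IPC Dam-only samples lie behind the lists compared here. The authors trimmed the reads, mapped them to mm10 (GRCm38) and called broad peaks with Macs2 for each pair of fusion and Dam-only sample. Peaks were kept if they passed a strict FDR cut-off and were found in all pairs. The deposited files give positions in bp and no other unit: the remaining columns of the lists are constant, so no height, signal or depth per sample is known, there are 0 columns of single samples, and no replicate could be left out. A further file gives the authors' consensus peaks with a k-means cluster number.

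Peaks on 21 nuclear chromosomes were compared from 1 bp of overlap. Start sites, exons and introns were taken from GENCODE M21 protein-coding genes, and bases from the RefSeq GRCm38 sequence, with Python 3.11.15, numpy 2.4.6 and scipy 1.17.1. A distance is from the edge of a peak, 0 where it covers a start site. Features are those of its midpoint. Differences of 2 shares have Newcombe 95% intervals. Words were counted on both strands, overlaps included. Genome positions were taken every 10 kb. The procedures were checked against a direct search, which matched at 500 of 500 peaks, and on simulated lists, where every planted overlap was recovered in 20 of 20 runs.

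The groups, the 25 gene lists and the rule for named genes were chosen with earlier results of these data known. Named were members of the Notch pathway, Hes and Hey, IPC and radial glia lists, the 5 genes with the most sites of each group, genes with all 3 groups and 5 or more sites, the genes of the 5 widest shared sites, the study's loci (Hes1, Hes5, Nrarp, Nepro, Sox2, Pax6, Prdm16, Sox9, Gli2, Gli3, Ctnnb1, Tcf7l2 and Lhx2), and up to 4 members of other lists with the most sites. From the windows that the rule allows, the 6 printed were picked after their sequences were seen. Olfactory and vomeronasal genes (Olfr and Vmn) were a further list. The alternatives were other overlap rules, widths of at least 1000 bp, autosomes, midpoints, start sites within 100 kb, all annotated genes, the word TTCCCAC, the central 500 bp, a stricter RGC overlap and, after the data were seen, peaks with at least 1 GATC site.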

Additional observations from a re-analysis of the deposited data

Results flagged for a closer look

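Peaks on the mitochondrial genome lie outside the comparison of nuclear chromosomes, but both IPC lists hold some, called above the Dam-only samples. The IPC Notch list has 4 and the IPC RBPJ list 5, covering 12074 and 11476 bp. All 4 of the Notch peaks overlap an RBPJ peak, over 11453 bp in all. The RGC RBPJ list has 3 mitochondrial peaks and the RGC Notch list has 0. What gave rise to them was not tested.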

How the results depend on the processing

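No paired analysis was possible because the deposited lists are pooled over samples and carry no replicate numbers, and for the same reason no replicate could be left out. Of 260 values computed under an alternative, 213 stayed within the interval of the reported value (for counts, within 1.5 times) and 47 moved. Demanding that 50% of the shorter peak be covered, autosomes only, midpoints, genes within 100 kb and all annotated genes moved none of theirs. Counting gaps of up to 1000 bp as shared raised the shared part to 25.3% of Notch and 9.68% of RBPJ peaks. With peaks of at least 1000 bp it was 20.7% and 7.41%, with 294 shared sites and 266 genes near them; an RGC RBPJ peak then overlapped 76.2% of shared Notch, 76.3% of shared RBPJ and 54.3% of Notch-only peaks, an RGC Notch peak overlapped 23.8% of Notch-only peaks, and start sites lay in 13.497% of Notch-only and 16.52% of RBPJ-only peaks. With peaks that hold a GATC site, an alternative chosen after seeing the data, 12.5% of RBPJ peaks were shared, and of RBPJ-only peaks 17.97% covered a start site, 9.02% overlapped an RGC Notch and 33.4% an RGC RBPJ peak, with 1.32 TTCCCA words per kb. An RGC overlap of at least 50% of the IPC peak gave 4.96% (RGC Notch) and 20.3% (RGC RBPJ) of RBPJ-only peaks. In the central 500 bp TTCCCA density was 1.45 for shared Notch, 1.18 for Notch-only and 1.49 for shared RBPJ peaks. The longer word TTCCCAC occurred 0.307, 0.243, 0.285 and 0.308 times per kb in shared Notch, Notch-only, shared RBPJ and RBPJ-only peaks. Under each setting that gave RGC overlaps, shared peaks came first, Notch-only peaks next and RBPJ-only peaks last. A stricter calling threshold could not be set, since the lists hold no score, and depth is unknown.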
